A study of Mus musculus with 4 samples.

Results

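Collagens, laminins and integrins were read as 3 gene families in RNA sequenced from sorted inner-ear cells of *Atoh1/nGFP* mice. The members were the rows whose gene symbol begins as a collagen chain (*Col* with a type and chain number), a laminin chain (*Lama*, *Lamb* or *Lamc* with a number) or an integrin subunit (*Itga* or *Itgb*). This rule found 56 of the 12814 genes, namely 29 collagen, 9 laminin and 18 integrin rows. Of these, 52 encode a chain of their family, and 4 match by name only. The latter are *Col4a3bp* (a ceramide transfer protein), *Itgb1bp1* and *Itgb3bp* (proteins named for binding an integrin tail) and *Itgbl1* (a secreted protein resembling the β subunits). The annotation holds 87 protein-coding genes with matching symbols, and the other 31, such as *Col6a1*, *Itga1*, *Lamb3* and *Lamc3*, were not analysed here.

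All samples came from newborn mice of genotype *Atoh1/nGFP* on a C57BL/6 background, in which a nuclear green fluorescent protein driven by *Atoh1* control sequence marks hair cells (HCs), the mechanosensory cells of the ear. Inner ears of several mice were pooled for sorting. Cells with the fluorescent protein and the epithelial surface protein CD326 were taken as HCs, and cells with CD326 alone as epithelial non-sensory cells (ENSCs). Both were sorted from the hearing organ (cochlea) and from the balance organ (vestibular system). Each of these 4 populations had 1 column of values, called its library here. The design text speaks of triplicates, and whether a column is a single library, a pool or a mean is not given in the sources used here. So no difference has a replicate error, no test was made and no p-values are given. The protein marks HCs of every type, and the labels do not divide ENSCs further, so each value is a mean over mixed epithelial cells. In such bulk samples, fewer cells of a type and less RNA per cell cannot be told apart.

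Collagens are secreted as triple helices. Fibrillar types build fibrils, fibril-associated types coat them, and type IV forms the network of basement membranes. Laminins are trimers of an α, a β and a γ chain that polymerise on the basal cell surface beside collagen IV. Integrins are αβ dimers in the plasma membrane, and many bind laminin, collagen or matrix proteins with an RGD motif. In the ear these proteins form the basement membrane under the sensory epithelium and, with the tectorins, the tectorial membrane, an acellular gel over the cochlear HCs whose fibrils hold collagens II, V, IX and XI.

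The values are quantile-normalized signals with a floor of 20, and 4 signals listed without names are in the order cochlear HCs, cochlear ENSCs, vestibular HCs, vestibular ENSCs. Each column summed to 7830343 with a median of 120, so column totals carry no depth and the depth is unknown. At the low end a library's values did not rank genes up to 24.25 in cochlear HCs, 22.75 in cochlear ENSCs, 30.5 in vestibular HCs and 20 in vestibular ENSCs. These stretches held 20, 7, 19 and 4 of the 56 members. A fold against such a value is given as a lower bound, computed against the top of the stretch, and no fold is given where both values lie inside. Markers followed the sort: 5 HC genes summed to 6525 and 9775.0 in the HC libraries against 190.0 and 100.2 in the ENSC libraries. The CD326 gene *Epcam* was at 1017 in cochlear HCs, 3376 in cochlear ENSCs, 1139 in vestibular HCs and 7511 in vestibular ENSCs. Ratios against vestibular ENSCs moved with GC content. A correction for exonic length and GC content changed the vestibular HC to ENSC ratio by over 1.5 times for 25 of the 56 members and the cochlear one for 0, and corrected log2 ratios are given with the results.

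Members of all 3 families mostly had lower signals in HCs than in ENSCs, organ by organ. Of the 56 members, 52 (92.9%) reached their highest signal in an ENSC library, compared with 54.7% of all genes. In the cochlea 47 members were lower in HCs at any size, as were 5965 of the 12814 genes. Of the members, 27 (48.2%) were at least 3-fold lower, where 9.20% of all genes were. No member was 3-fold higher in cochlear HCs, where 8.39% of all genes were. In the vestibular system 31 members (55.4%) were at least 3-fold lower in HCs, beside 14.3% of all genes, and 4 (7.14%) were at least 3-fold higher, beside 13.8% of all genes. The median log2 ratio of HCs to ENSCs over the members was -1.47 for the cochlear and -1.90 for the vestibular pair, where the medians over all genes were 0.000 and -0.005.

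The 3 families had different counts and medians, and the differences between families were not tested. Collagens had the lowest medians, with 17 of 29 past 3-fold lower in the HCs of the cochlea, 17 of 29 in those of the vestibular system, and median log2 ratios of -2.17 and -3.04. Laminins had a median of -0.62 in the cochlea, where 2 of 9 were 3-fold lower. In the vestibular system their median was -2.38, and 6 of 9 were 3-fold lower and 2 were 3-fold higher. Integrin rows lay between in the cochlea, with 8 of 18 3-fold lower and a median of -1.47. In the vestibular system 8 integrin rows were 3-fold lower and 2 were 3-fold higher, with a median of -1.54. As a share of the column, collagens made up 0.0857%, 0.644%, 0.0856% and 1.07% in the 4 libraries, laminins 0.0123%, 0.0446%, 0.0128% and 0.0846%, and integrins 0.0953%, 0.457%, 0.0577% and 0.150%. The summed signal of collagens and of laminins was thus highest in vestibular ENSCs, and that of integrins in cochlear ENSCs.

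**Figure D1:**
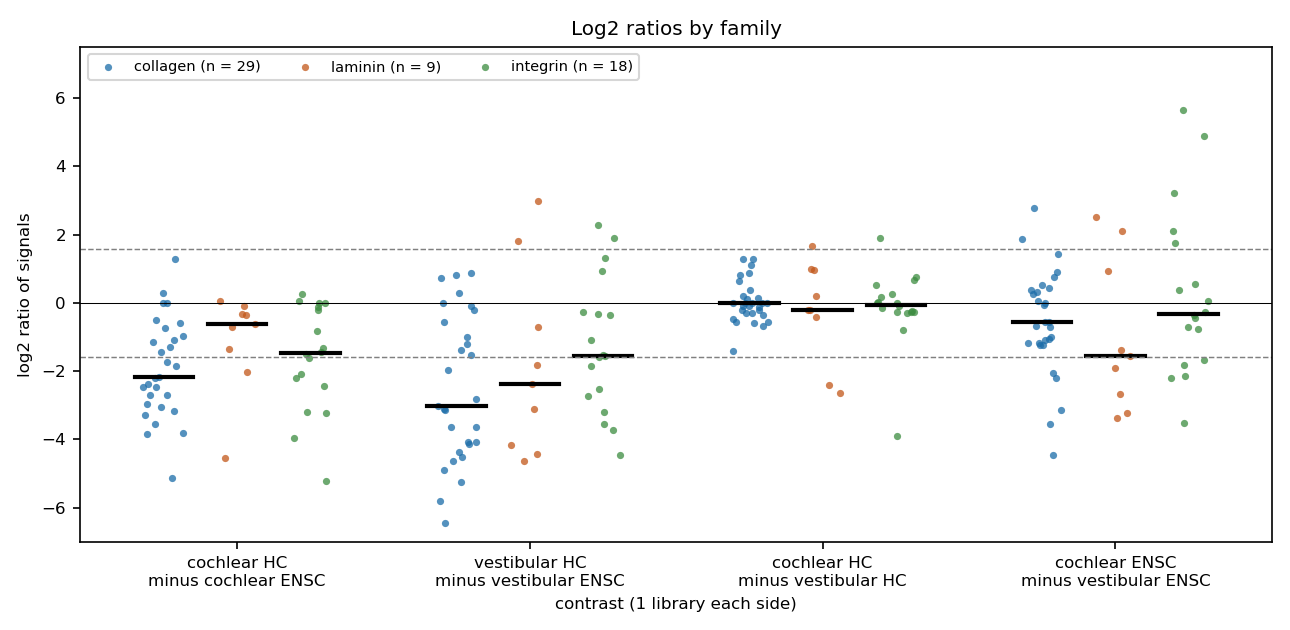
Log2 ratio of the signals (y axis) of every matched gene in the 4 contrasts (x axis), 1 point per gene, with 29 collagen, 9 laminin and 18 integrin rows. Black bars are family medians and dashed lines mark 3-fold. In both contrasts of HCs with ENSCs all family medians lie below 0, and between the 2 HC libraries they lie at 0.00, -0.21 and -0.05.

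Between organs, fewer members were 3-fold apart in HCs than in ENSCs. Of the 56 members, 2 were at least 3-fold higher and 3 at least 3-fold lower in cochlear than in vestibular HCs (3.57% and 5.36%), near the 4.21% and 5.09% of all genes. None of these 5 was a collagen, whose log2 ratios between the HC libraries ran from -1.41 to 1.30. But 11 of the 29 collagen rows lay in the unranked stretch of cochlear HCs and 11 in that of vestibular HCs. In cochlear and vestibular ENSCs these counts were 3 and 2. Over all members they were 20 and 19 in HCs, and 7 and 4 in ENSCs. Where both signals lay inside such stretches, a difference between organs could not be seen. Between the ENSC libraries 9 members were higher in the cochlea and 14 lower (16.1% and 25%), against 7.80% and 7.94% of all genes. These contrasts share libraries with the contrasts of HCs and ENSCs.

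**Figure D2:**
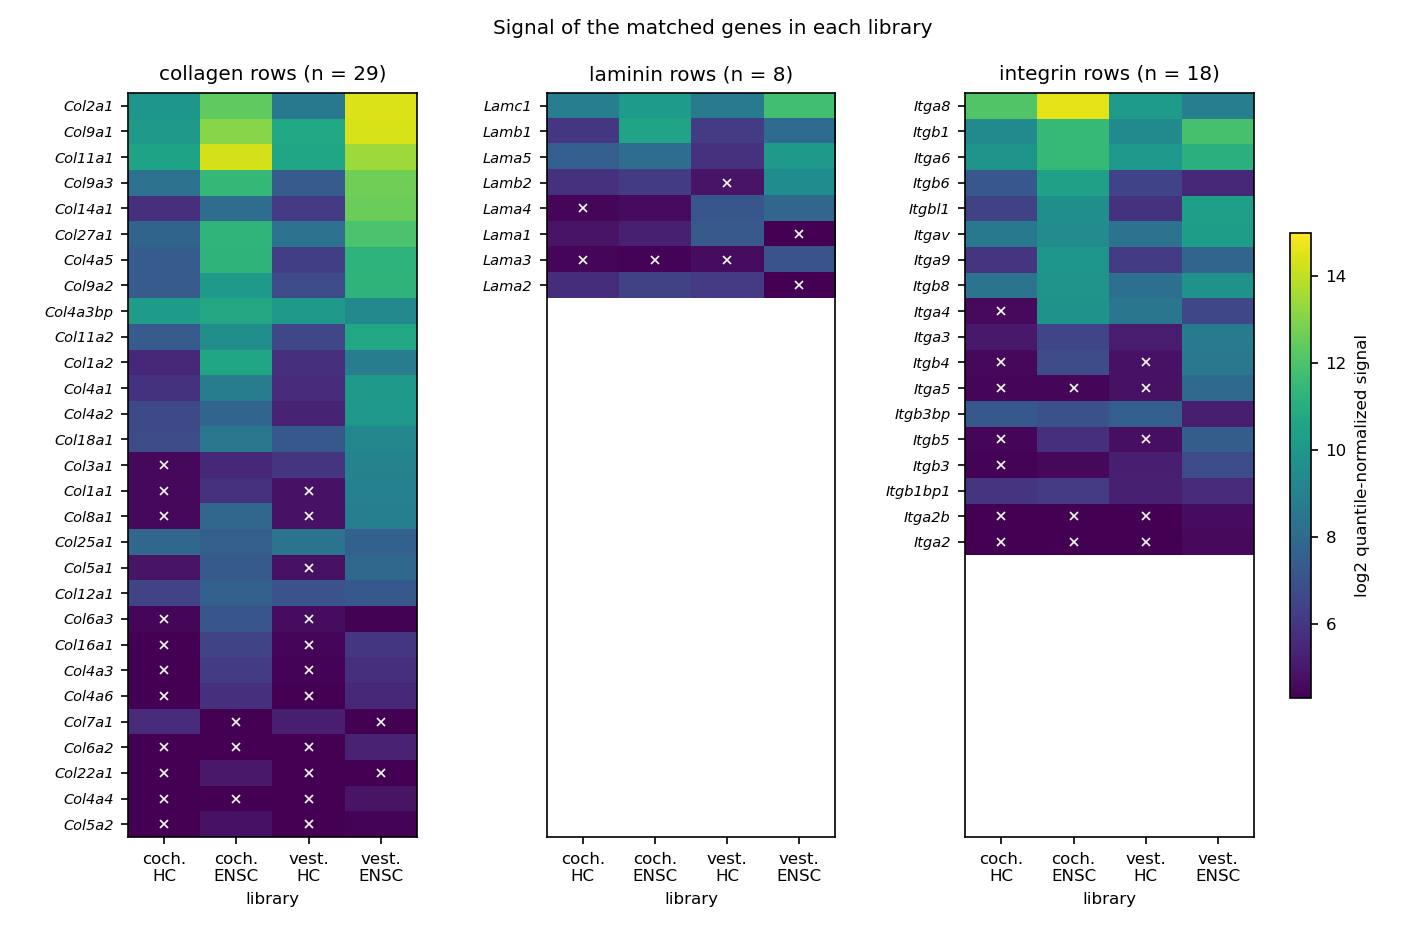
Log2 signal (colour scale) of each matched gene (rows, sorted by highest signal) in the 4 libraries (columns), drawn for each family, with 8 of the 9 laminins. White crosses mark signals inside the low stretch of a library that does not rank genes. The 8 collagens with the highest signals are brighter in both ENSC columns than in either HC column, while *Itga8* and *Itgb6* are dim in vestibular ENSCs.

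Chains of collagens II, IX and XI, the set known from cartilage and from the tectorial membrane, included the 4 collagens with the highest levels per kb in every library. *Col2a1*, the single chain of collagen II, had signals of 978 in cochlear HCs, 5439 in cochlear ENSCs, 399.8 in vestibular HCs and 22405 in vestibular ENSCs. It was 5.56-fold lower in cochlear HCs than in cochlear ENSCs and 56.05-fold lower in vestibular HCs than in vestibular ENSCs, and the vestibular log2 ratio of -5.81 was -4.52 after the correction. *Col11a1*, which helps to start collagen II fibrils, had 1459.5 in cochlear HCs, 20413 in cochlear ENSCs, 1556 in vestibular HCs and 10956 in vestibular ENSCs. It was 13.99-fold lower in cochlear HCs than in cochlear ENSCs and 7.04-fold lower in vestibular HCs than in vestibular ENSCs. *Col11a1* was the only one of the 6 chains higher in cochlear than in vestibular ENSCs, at 1.86-fold higher, whereas *Col2a1* was 4.12-fold lower. Corrected for exonic length and GC content, the latter log2 ratio went from -2.04 to -1.05, under 3-fold. For the same contrast *Col11a1* went from 0.90 to 0.70, *Col9a1* from -1.25 to -1.06 and *Col9a3* from -1.23 to -0.48. The log2 ratio of *Col9a2* went from -1.18 to -0.18 and that of *Col11a2* from -1.08 to -0.05. The second collagen XI chain, *Col11a2*, had signals of 169.8, 786, 97.2 and 1658, 4.63-fold lower in cochlear HCs than in cochlear ENSCs and 17.1-fold lower in vestibular HCs than in vestibular ENSCs.

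Collagen IX sits on the surface of collagen II fibrils and is built from 3 different chains. *Col9a1* had 1069.8 in cochlear HCs, 8876 in cochlear ENSCs, 1707 in vestibular HCs and 21040.5 in vestibular ENSCs. *Col9a2* had 168, 1090.0, 107 and 2470.0 in the same order. *Col9a3* had 314, 2793, 171 and 6555. All 3 chains were highest in vestibular ENSCs and next highest in cochlear ENSCs. In the cochlea they were 8.297-fold lower, 6.498-fold lower and 8.91-fold lower in HCs. In the vestibular system the corresponding folds were 12.3-fold lower, 23.03-fold lower and 38.3-fold lower. After the correction the vestibular log2 ratios were -3.35 for *Col9a1*, -3.07 for *Col9a2* and -4.30 for *Col9a3*, so the order of *Col9a1* and *Col9a2* turned. In HCs, where signals were below those of ENSCs but above the unranked stretch, *Col9a1* was 1.595-fold lower in the cochlea. *Col9a2* and *Col9a3* were 1.56-fold higher and 1.83-fold higher there.

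Levels of different genes can be compared only per length, so signals were divided by exonic length in kb. On that scale *Col9a1*, *Col2a1*, *Col11a1* and *Col9a3* were the 4 leading collagens in every library. *Col11a1* led in cochlear ENSCs at 2114 per kb, 30.2% of the summed collagen level per kb. *Col9a1* led in vestibular ENSCs at 4108 per kb, followed by *Col2a1* at 3716. The per-kb ratio of *Col9a3* to *Col9a2* stayed between 1.28 and 2.13 over the 4 libraries. The ratio of *Col2a1* to *Col11a1* moved more, from 1.07 in cochlear HCs, 0.427 in cochlear ENSCs and 0.411 in vestibular HCs to 3.28 in vestibular ENSCs. That of *Col11a1* to *Col11a2* was 6.08, 18.4, 11.3 and 4.67 in the same order. Both shifts between the ENSC libraries were smaller after the correction, as given with the base composition.

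The promoters of 3 of these genes are shown because each gene passed 3-fold lower in the HCs of both organs and their start sites carry GC boxes. Windows of 300 bases, 250 before the RefSeq start and 50 from it on (mouse GRCm38.p6), were searched for GGGCGG on both strands, and capitals mark the matches. *Col9a2* (chr4:121039316-121039615, plus strand) held 3 matches, and *Col11a1* (chr3:114030290-114030589, plus strand) and *Col11a2* (chr17:34038888-34039187, plus strand) 2 each.
Col9a2: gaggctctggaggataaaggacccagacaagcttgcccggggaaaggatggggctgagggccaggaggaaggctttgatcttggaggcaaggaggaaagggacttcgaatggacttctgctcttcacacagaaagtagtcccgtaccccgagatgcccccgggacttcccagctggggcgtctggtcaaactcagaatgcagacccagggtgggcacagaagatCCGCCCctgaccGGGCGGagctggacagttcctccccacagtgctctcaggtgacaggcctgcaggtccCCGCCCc
Col11a1: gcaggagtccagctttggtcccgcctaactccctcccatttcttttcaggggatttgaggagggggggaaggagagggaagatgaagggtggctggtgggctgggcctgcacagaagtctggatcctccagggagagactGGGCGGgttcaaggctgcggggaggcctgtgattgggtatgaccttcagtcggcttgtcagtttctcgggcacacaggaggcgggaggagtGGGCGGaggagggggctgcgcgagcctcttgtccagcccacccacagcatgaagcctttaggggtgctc
Col11a2: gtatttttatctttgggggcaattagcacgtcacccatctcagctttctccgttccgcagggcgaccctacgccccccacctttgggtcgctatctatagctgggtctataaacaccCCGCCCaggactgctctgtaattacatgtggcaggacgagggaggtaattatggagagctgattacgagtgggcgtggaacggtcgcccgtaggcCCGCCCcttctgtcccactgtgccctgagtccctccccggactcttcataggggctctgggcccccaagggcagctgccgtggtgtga
A window was found for 39 of the 56 members, 44 windows in all. GGGCGG was in 29 of the 44 (65.9%), against 35.7% of 32851 background windows of 27025 annotated genes. That background includes genes without a row, while every member has one, so the groups compared are unlike. It was in 17 of 23 collagen windows, 3 of 4 laminin windows and 9 of 17 integrin windows. The same search of both strands gave CCAAT in 31.8% of member windows and 37.4% of the background windows, and ACAAAG, a core bound by SOX factors, in 6.82% and 18.7%. The *Col9a1* windows held no GGGCGG, and the gene was also lower in HCs of both organs. Such matches describe the letters of the window only.

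Collagens V and XXVII are fibrillar types as well. *Col5a1* had 29.8, 163, 27.5 and 242, 5.47-fold lower in cochlear HCs than in cochlear ENSCs and at least 7.92-fold lower in vestibular HCs than in vestibular ENSCs. *Col5a2* was at or near the floor in every library, with 20, 28.5, 20 and 21.2. *Col27a1*, a fibrillar collagen of cartilage, reached 214 in cochlear HCs, 2512 in cochlear ENSCs, 323 in vestibular HCs and 4008 in vestibular ENSCs, which was 11.7-fold lower in cochlear HCs than in cochlear ENSCs and 12.4-fold lower in vestibular HCs than in vestibular ENSCs. Corrected for exonic length and GC content, its cochlear log2 ratio was -3.62 and its vestibular one -2.69.

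**Figure D3:**
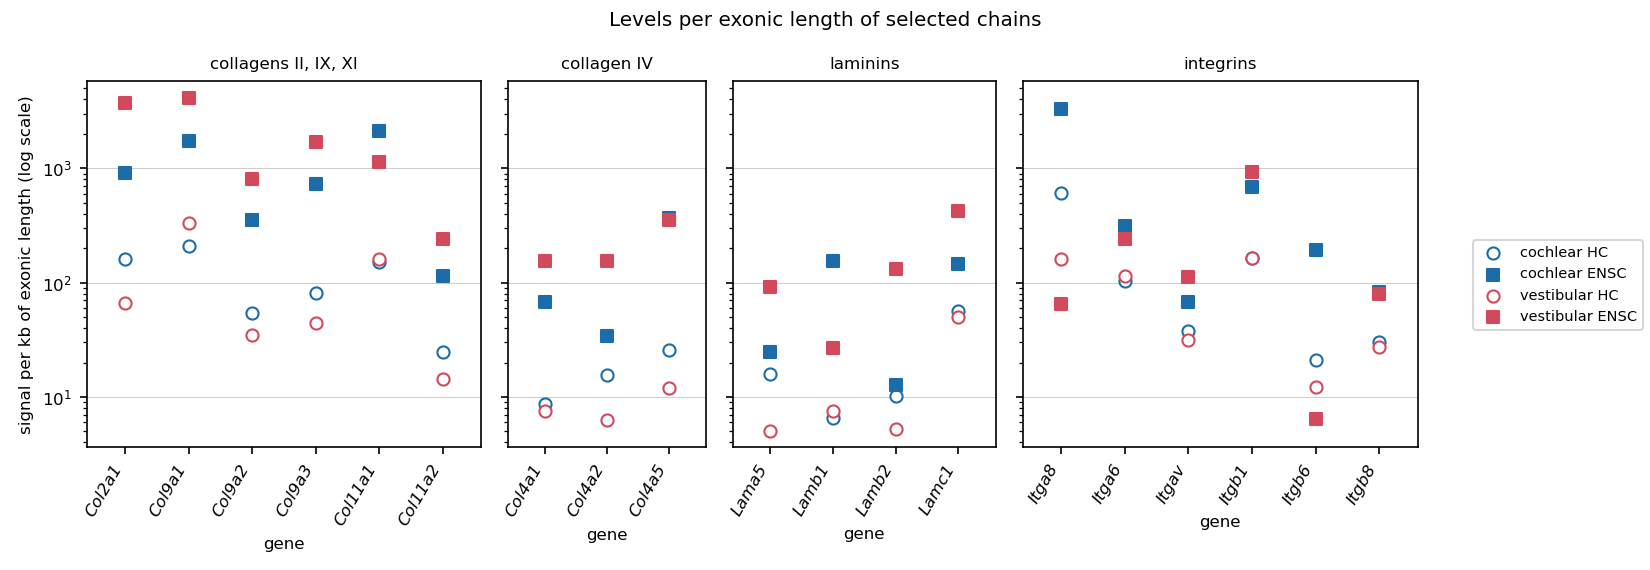
Signal per kb of exonic length (y axis, log scale) of 19 chains (x axis) in the 4 libraries; open circles are HCs, filled squares ENSCs, blue cochlear and red vestibular. ENSC squares lie above the HC circles of the same organ for all collagen and laminin chains drawn, while *Itga8* and *Itgb6* have their lowest value in vestibular ENSCs.

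The collagen IV chains are encoded as 3 pairs that face each other from a shared start region. *Col4a1* and *Col4a2*, which together make the common α1 and α2 network of basement membranes, lie head to head on mm9 chromosome 8. *Col4a1* (mm9 chr8:11198423-11312826, minus strand) and *Col4a2* (mm9 chr8:11312805-11449287, plus strand) overlap by 22 bases in the annotation. Their RefSeq promoter windows on GRCm38.p6 (chr8:11312777-11313076, minus strand, and chr8:11312555-11312854, plus strand) share 78 bases, marked here by capitals, and are shown because the pair's signals could be set side by side.
Col4a1: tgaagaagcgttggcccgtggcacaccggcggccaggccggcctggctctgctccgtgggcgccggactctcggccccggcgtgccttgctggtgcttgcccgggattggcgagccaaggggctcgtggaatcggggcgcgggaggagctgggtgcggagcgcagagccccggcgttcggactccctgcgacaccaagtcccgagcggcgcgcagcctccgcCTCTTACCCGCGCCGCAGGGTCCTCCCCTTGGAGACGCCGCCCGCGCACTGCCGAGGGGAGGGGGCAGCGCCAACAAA
Col4a2: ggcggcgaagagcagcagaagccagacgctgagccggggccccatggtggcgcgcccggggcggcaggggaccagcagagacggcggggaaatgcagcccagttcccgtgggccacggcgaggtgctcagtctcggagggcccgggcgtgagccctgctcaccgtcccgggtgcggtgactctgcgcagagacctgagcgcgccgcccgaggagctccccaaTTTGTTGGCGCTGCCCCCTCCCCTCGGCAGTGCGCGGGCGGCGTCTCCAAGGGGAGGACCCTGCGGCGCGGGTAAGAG
*Col4a1* had signals of 59.5 in cochlear HCs, 466 in cochlear ENSCs, 51.2 in vestibular HCs and 1054 in vestibular ENSCs, and *Col4a2* of 102 in cochlear HCs, 226 in cochlear ENSCs, 41.5 in vestibular HCs and 1032 in vestibular ENSCs. In the vestibular system *Col4a1* was 20.6-fold lower in HCs and *Col4a2* 24.9-fold lower. In the cochlea *Col4a1* was 7.83-fold lower in HCs but *Col4a2* 2.22-fold lower. Per kb, *Col4a1* to *Col4a2* was 0.566, 1.996, 1.199 and 0.991 in the 4 libraries, so the pair was near equal in vestibular ENSCs and not in cochlear ENSCs. The exons shared by the pair are a small part of either gene, 0.320% of *Col4a1*, and the strand setting of the counting is not given in the sources used here.

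The α3, α4 and α5 chains form the network whose loss causes Alport syndrome, a kidney disease with hearing loss. *Col4a5* had 172 in cochlear HCs, 2470.0 in cochlear ENSCs, 80 in vestibular HCs and 2385 in vestibular ENSCs and was 14.3-fold lower in cochlear HCs than in cochlear ENSCs and 29.8-fold lower in vestibular HCs than in vestibular ENSCs. Per kb it was the highest collagen IV chain in all 4 libraries, with 2.94, 5.38, 1.58 and 2.30 times the level of *Col4a1*. Its partners were far lower. *Col4a3* had 20, 72.2, 21.2 and 55.5, *Col4a4* had 20, 20, 20 and 29.8, and *Col4a6*, which faces *Col4a5* on the X chromosome at a distance of 1308 bases, had 20, 54.8, 20 and 46. *Col4a4* was thus at the floor in 3 libraries, and *Col4a3* lay at least 2.98-fold lower in cochlear HCs than in cochlear ENSCs, a bound just under the 3-fold threshold that the unadjusted ratio passed.

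The chains typical of fibroblasts were low in HCs and split between the ENSC libraries. Collagens I and III form the fibrils of loose connective tissue. *Col1a2* had 46.2 in cochlear HCs, 1618 in cochlear ENSCs, 54 in vestibular HCs and 443 in vestibular ENSCs. It was 34.98-fold lower in cochlear HCs than in cochlear ENSCs, the largest fold among collagens in the cochlea, and 8.21-fold lower in vestibular HCs than in vestibular ENSCs. *Col1a1*, its partner in collagen I, had 23.8, 58.2, 29 and 512 and *Col3a1* had 23.8, 46.2, 63.2 and 547. In cochlear ENSCs they were 8.79-fold lower and 11.8-fold lower than in vestibular ENSCs, whereas *Col1a2* was 3.65-fold higher there. Per kb, *Col1a2* stood at 15.01 times *Col1a1* in cochlear ENSCs and at 0.468 times in vestibular ENSCs. The beaded-filament chains *Col6a2* and *Col6a3* had 20, 20, 20 and 40.2 and 22.2, 145, 25.8 and 21, and *Col6a3* in cochlear ENSCs was the highest of them, 6.92-fold higher in cochlear ENSCs than in vestibular ENSCs.

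Of 10 mesenchyme and fibroblast markers 6 had a row, and their summed signal was 1456 in cochlear HCs, 15616 in cochlear ENSCs, 294 in vestibular HCs and 1212 in vestibular ENSCs. In cochlear ENSCs *Lum* (12731) and *Dcn* (1828) made up most of it. The defining transcription factors *Tbx18* and *Prrx1* were at the floor of 20 in both cochlear libraries and at 54.75 and 31.25 in vestibular ENSCs. *Twist1*, *Twist2*, *Pou3f4* and *Thy1* had no row. *Postn* had 24.2, 962, 29.8 and 413.5, at least 39.7-fold lower in cochlear HCs than in cochlear ENSCs. In vestibular HCs it was at least 13.6-fold lower than in vestibular ENSCs. *Pdgfra*, another of the 6, went the other way, with 482, 54.2, 163 and 47.8, 8.88-fold higher in cochlear HCs than in cochlear ENSCs and 3.41-fold higher in vestibular HCs than in vestibular ENSCs. Of 6 endothelial markers 1 had a row, *Kdr*, at 24.2, 29, 29.8 and 1462. Of 3 pericyte markers 1 had a row, *Rgs5*, at 21, 59, 23.5 and 93.5. The 5 glial markers summed to 1001, 2249, 574.8 and 3681, and 4 of them were 3-fold lower in cochlear and 3 in vestibular HCs. Of 5 neuronal markers 4 had a row. *Nefl* (2381, 41, 2470.0 and 20), *Nefm* (1995, 76.8, 2121 and 20) and *Snap25* (1291, 53.2, 2090.5 and 20) were far higher in HCs of both organs, whereas *Isl1* had 3682, 4976, 2957 and 339. Of the leukocyte, melanocyte and erythroid lists only *Cd68*, at most 24.8, and *Kit*, at 396, 110.2, 218 and 138, had rows. Of the 5 epithelial markers 4 passed 3-fold lower in the HCs of the cochlea and all 5 in those of the vestibular system, with median log2 ratios of -1.99 and -4.21, so they moved with the families. The exception in the cochlea was *Cdh1*, with 6003, 4853, 178 and 3308. The part of the epithelial difference in the family results, and of other cell types in the ENSC values of collagens I, III, IV and VI, was not tested. *Epyc*, a gene of cochlear supporting cells, was at 764, 62028, 210.0 and 1119, which is 81.2-fold lower in cochlear HCs than in cochlear ENSCs. The other supporting cell markers listed, *Otogl*, *Otog* and *Tecta*, were 4.54-fold lower, 1.59-fold lower and 2.79-fold lower in cochlear HCs, and the part of ENSC RNA in the HC values was not tested.

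Among the remaining collagens, *Col14a1*, *Col18a1* and *Col8a1* were at least 3-fold lower in HCs of both organs. *Col14a1*, a fibril-associated type of connective tissue, had 55.5 in cochlear HCs, 286 in cochlear ENSCs, 70.5 in vestibular HCs and 6232 in vestibular ENSCs. It was 88.4-fold lower in vestibular HCs than in vestibular ENSCs, the largest fold of any member between HCs and ENSCs, and 5.15-fold lower in cochlear HCs than in cochlear ENSCs. In cochlear ENSCs it was 21.8-fold lower than in vestibular ENSCs. *Col18a1*, the basement membrane collagen that carries endostatin, had 112, 372, 154 and 602, 3.33-fold lower in cochlear HCs than in cochlear ENSCs and 3.90-fold lower in vestibular HCs than in vestibular ENSCs, and its vestibular log2 ratio of -1.96 became -0.76 with the correction for length and GC content. *Col8a1*, a short-chain network collagen, had 23.8, 232, 29 and 488, at least 9.56-fold lower in cochlear HCs than in cochlear ENSCs and at least 15.98-fold lower in vestibular HCs than in vestibular ENSCs.

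*Col25a1*, a membrane-spanning collagen of neurons, had its highest signal in vestibular HCs, with 228, 186, 339.5 and 194. It was 1.23-fold higher in cochlear HCs than in cochlear ENSCs and 1.75-fold higher in vestibular HCs than in vestibular ENSCs, both under 3-fold. *Col7a1*, the anchoring-fibril collagen and the only other one highest in an HC library, was above the unranked stretch in the HC libraries only, at 48.5, 20, 37 and 20, at least 2.13-fold higher in cochlear HCs than in cochlear ENSCs and at least 1.85-fold higher in vestibular HCs than in vestibular ENSCs. *Col12a1* had 90.8, 192, 134 and 156. The others, *Col16a1* and *Col22a1*, stayed below 100 in all libraries. *Col4a3bp*, which is no collagen, differed by less than 3-fold in all 4 contrasts, with 1158, 1729.8, 1058 and 644.

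Of the 9 laminin chains, 8 are described by name. The γ1 chain, shared by most laminins, is encoded by *Lamc1*. It had 469.5 in cochlear HCs, 1203 in cochlear ENSCs, 411 in vestibular HCs and 3529.5 in vestibular ENSCs and was 2.56-fold lower in cochlear HCs than in cochlear ENSCs and 8.58-fold lower in vestibular HCs than in vestibular ENSCs. Per kb *Lamc1* was the leading laminin except in cochlear ENSCs, where *Lamb1* stood at 154 per kb and *Lamc1* at 145.

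The β chains exchanged places between the ENSC libraries. *Lamb1* (mm9 chr12:31950099-32014509, plus strand) had 64.8 in cochlear HCs, 1523 in cochlear ENSCs, 74.8 in vestibular HCs and 264 in vestibular ENSCs. *Lamb2* (mm9 chr9:108382193-108392861, plus strand), the β chain of mature and synaptic basement membranes, had 57.8 in cochlear HCs, 71.8 in cochlear ENSCs, 29.8 in vestibular HCs and 742 in vestibular ENSCs. *Lamb1* was 5.77-fold higher in cochlear ENSCs than in vestibular ENSCs, while *Lamb2* was 10.3-fold lower there. Per kb, *Lamb1* was 12.04 times *Lamb2* in cochlear ENSCs and 0.202 times in vestibular ENSCs. In cochlear HCs, by contrast, the ratio was 0.636, and in vestibular HCs *Lamb2* fell inside the unranked stretch. Against the ENSCs of their organ, *Lamb1* was 23.5-fold lower in cochlear and 3.53-fold lower in vestibular HCs, and *Lamb2* 1.24-fold lower and at least 24.3-fold lower.

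The α chains, which hold the main binding sites for receptors, went in different directions. *Lama5*, the α chain of most adult epithelial basement membranes, had 182 in cochlear HCs, 281 in cochlear ENSCs, 58 in vestibular HCs and 1050.5 in vestibular ENSCs. It was 18.1-fold lower in vestibular HCs than in vestibular ENSCs, but 1.54-fold lower in the cochlea, and 3.15-fold higher in cochlear HCs than in vestibular HCs. The last ratio, a log2 of 1.65, was 1.55 and under 3-fold after the same correction. *Lama1*, the α chain of embryonic laminin-111, had 29.8 in cochlear HCs, 38 in cochlear ENSCs, 158 in vestibular HCs and 20 in vestibular ENSCs. It lay at least 7.88-fold higher in vestibular HCs than in vestibular ENSCs and 5.29-fold lower in cochlear HCs than in vestibular HCs. *Lama2*, the chain of muscle and nerve laminins, had 53.2, 86.2, 71 and 20 and lay at least 3.55-fold higher in vestibular HCs than in vestibular ENSCs. *Lama1* and *Lama2* were the only members besides *Itga4* and *Itgb3bp* with a 3-fold higher signal in HCs of either organ. The signals of *Lama1* and *Lama2* stayed below 200 in all libraries, and with the floor raised to 100 neither passed 3-fold.

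*Lama3*, an α chain of epithelial laminins, had 22.2, 21.2, 25.8 and 134, so only vestibular ENSCs stood above the unranked stretch, and it lay at least 5.89-fold lower in cochlear ENSCs than in vestibular ENSCs. *Lama4*, typical of vessels and mesenchyme, had 23 in cochlear HCs, 24.8 in cochlear ENSCs, 143 in vestibular HCs and 234 in vestibular ENSCs. It was low in both cochlear libraries, at least 5.91-fold lower in cochlear HCs than in vestibular HCs and 9.43-fold lower in cochlear ENSCs than in vestibular ENSCs. With the floor raised to 100 neither difference between organs passed 3-fold. Of the laminins, *Lama4* alone did not pass 3-fold between HCs and ENSCs of either organ. In at least 1 of the 4 contrasts 3-fold was passed by all 9 laminins, 20 of 29 collagens and 14 of 18 integrin rows, where 42.1% of all genes passed it.

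Among the integrins, *Itgb1*, the β subunit shared by most matrix-binding integrins, had 669 in cochlear HCs, 2817 in cochlear ENSCs, 664 in vestibular HCs and 3812 in vestibular ENSCs. It was 4.21-fold lower in cochlear HCs than in cochlear ENSCs and 5.74-fold lower in vestibular HCs than in vestibular ENSCs, and its signal in cochlear HCs was 1.01 times that in vestibular HCs. *Itga8* (ENSMUSG00000026768, mm9 chr2:12028259-12223547, minus strand) encodes the α8 subunit, which pairs with β1, binds RGD ligands such as nephronectin, and is known for its part in the stereocilia of vestibular HCs. It had 4428 in cochlear HCs, 23927 in cochlear ENSCs, 1181 in vestibular HCs and 476 in vestibular ENSCs. The order of its levels was therefore cochlear ENSCs, cochlear HCs, vestibular HCs and vestibular ENSCs. It was 50.2-fold higher in cochlear ENSCs than in vestibular ENSCs, the largest organ difference of any member, and 3.75-fold higher in cochlear HCs than in vestibular HCs. It was 5.404-fold lower in cochlear HCs than in cochlear ENSCs and 2.48-fold higher in vestibular HCs than in vestibular ENSCs.

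Per kb, *Itga8* was the leading integrin of both cochlear libraries, at 609 in HCs and 3290 in ENSCs, 60.4% and 67.2% of the summed integrin level per kb. *Itgb1* led in vestibular ENSCs at 934 per kb, and in vestibular HCs the pair was level, with 163 for *Itgb1* and 162 for *Itga8*. The ratio of *Itga8* to *Itgb1* per kb ran from 3.71 and 4.77 in cochlear HCs and ENSCs to 0.998 in vestibular HCs and 0.0701 in vestibular ENSCs. *Npnt*, the gene of nephronectin, had 109, 1147, 55.8 and 1956. It went the same way as *Itga8* between cochlear HCs and ENSCs and between the HC libraries, and the other way in both contrasts with vestibular ENSCs.

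Integrins with α3 or α6 are known as laminin receptors. *Itga6*, whose product pairs with β1 or, in hemidesmosomes, with β4, had 928 in cochlear HCs, 2842 in cochlear ENSCs, 1037 in vestibular HCs and 2186 in vestibular ENSCs. It was 3.06-fold lower in cochlear HCs than in cochlear ENSCs and 2.11-fold lower in vestibular HCs than in vestibular ENSCs. *Itgb4* had 23.5, 108, 28.8 and 384 and lay at least 4.45-fold lower in cochlear HCs than in cochlear ENSCs and at least 12.6-fold lower in vestibular HCs than in vestibular ENSCs. *Itga3* had 33, 92.8, 35.2 and 409.8, 2.81-fold lower in cochlear HCs than in cochlear ENSCs and 11.6-fold lower in vestibular HCs than in vestibular ENSCs. Of the 4 α subunits that bind collagen (α1, α2, α10 and α11) only *Itga2* had a row, and it stayed between 20 and 24 in all libraries.

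The α4 and α9 subunits form a subfamily whose ligands include VCAM-1, fibronectin and tenascin-C. *Itga4* (mm9 chr2:79095583-79173280, plus strand) had 24.2 in cochlear HCs, 906 in cochlear ENSCs, 361 in vestibular HCs and 97.5 in vestibular ENSCs. It lay at least 37.4-fold lower in cochlear HCs than in cochlear ENSCs but 3.71-fold higher in vestibular HCs than in vestibular ENSCs, and it was the 1 member past 3-fold in opposite directions in the 2 organs, as were 52 of all genes. Corrected for exonic length and GC content, its vestibular log2 ratio was 1.18, under 3-fold, and the cochlear one -5.46. *Itga9* had 62.5 in cochlear HCs, 965 in cochlear ENSCs, 74.8 in vestibular HCs and 226 in vestibular ENSCs. It was 15.4-fold lower in cochlear HCs than in cochlear ENSCs and 3.02-fold lower in vestibular HCs than in vestibular ENSCs, the latter at the edge of the threshold and under it after correction (log2 -1.21). In cochlear ENSCs the pair was 9.297-fold higher and 4.27-fold higher than in vestibular ENSCs.

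The αv subunit takes several β partners, of which β6 and β8 are known for activating latent TGF-β. *Itgav* had 404, 720.2, 338 and 1214, 1.78-fold lower in cochlear HCs than in cochlear ENSCs and 3.58-fold lower in vestibular HCs than in vestibular ENSCs. *Itgb6* had 149 in cochlear HCs, 1379 in cochlear ENSCs, 87.8 in vestibular HCs and 46 in vestibular ENSCs. It was 9.25-fold lower in cochlear HCs than in cochlear ENSCs, 1.91-fold higher in vestibular HCs than in vestibular ENSCs and 29.97-fold higher in cochlear ENSCs than in vestibular ENSCs. *Itgb8* had 336, 916, 300.2 and 887, with 1.03-fold higher signal in cochlear than in vestibular ENSCs (log2 0.05, and -0.65 after correction), and was 2.72-fold lower in cochlear HCs than in cochlear ENSCs and 2.95-fold lower in vestibular HCs than in vestibular ENSCs. Per kb, *Itgav* to *Itgb6* was 0.346 in cochlear ENSCs and 17.5 in vestibular ENSCs, whereas *Itgav* to *Itgb8* stayed between 0.810 and 1.41.

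The other subunits were low outside vestibular ENSCs. *Itga5*, the fibronectin receptor subunit, had 23, 22, 27.5 and 251 and lay at least 8.22-fold lower in vestibular HCs than in vestibular ENSCs. *Itgb5* had 22.5, 56.2, 26.8 and 179, and *Itgb3* had 21.8, 23.5, 37.5 and 108. *Itga2b*, the platelet subunit, stayed between 20 and 25.8. Of the rows that are no subunit, *Itgbl1* had 85.5, 801, 59.8 and 1315, 9.37-fold lower in cochlear HCs than in cochlear ENSCs and 22.01-fold lower in vestibular HCs than in vestibular ENSCs. *Itgb3bp* had 152, 126, 182 and 37.5 and was 4.85-fold higher in vestibular HCs than in vestibular ENSCs. Corrected for length and GC content, its log2 ratio of 2.28 was 1.68. With the floor raised to 100 it did not pass 3-fold, at a log2 ratio of 0.86, while *Itgb1bp1* stayed below 100.

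Set organ against organ, the share of members at least 3-fold lower in HCs of both organs was 48.3% for collagens. It was 22.2% each for laminins and integrin rows, a difference that was not tested. Of the 29 collagen rows 14 passed 3-fold lower in the HCs of both organs, 3 of the cochlea alone and 3 of the vestibular organs alone. The corresponding numbers were 2, 0 and 4 of 9 laminins and 4, 4 and 4 of 18 integrin rows. Over all members this gave 20 (35.7%) lower in both organs, against 597 (4.66%) of all genes, and no member was 3-fold higher in HCs of both. No library is shared between the organs' HC to ENSC log2 ratios, and their correlation across genes was r = 0.636 and rho = 0.622 for the 29 collagens, r = 0.156 and rho = 0.1 for the 9 laminins and r = -0.0538 and rho = 0.110 for the 18 integrin rows. Without the rows that are no chain, the values were r = 0.621 and rho = 0.588 for 28 collagens and r = -0.428 and rho = -0.263 for 15 integrin subunits. Over all 12814 genes r was 0.603 and rho 0.544. Genes are not independent replicates, and the columns share a normalization, so these are descriptions.

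**Figure D4:**
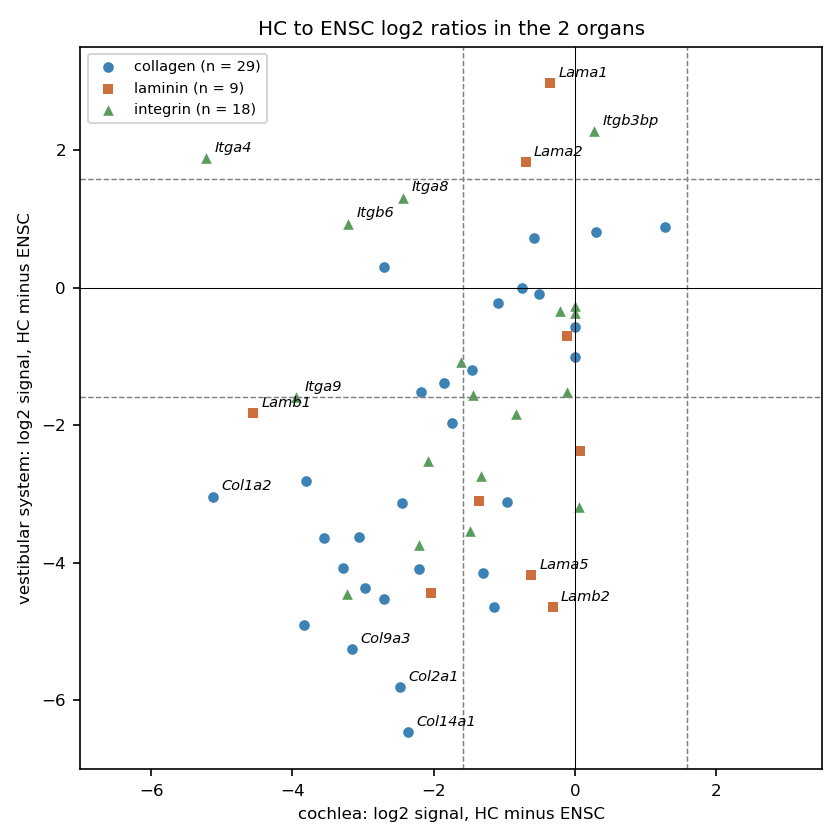
HC minus ENSC log2 ratio in the vestibular system (y axis) against that in the cochlea (x axis), 1 point per matched gene, with dashed lines at 3-fold. Most collagens lie in the lower left quadrant, while *Itga4*, *Itga8* and *Itgb6* are low on the cochlear axis and above 0 on the vestibular one, and *Lama1*, *Lama2* and *Itgb3bp* lie above the upper vestibular line.

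The ratios that involve vestibular ENSCs moved with the base composition of the genes. Across genes above the floor, Spearman's rho between GC content and log2 ratio was -0.395 for vestibular HCs against ENSCs over all genes and -0.579 over 46 members, and for cochlear against vestibular ENSCs -0.453 and -0.466 over 48 members. For cochlear HCs against ENSCs it was -0.0400 and 0.00578. The median GC content was 53.3% for collagens, 51.6% for laminins and 45.2% for integrins, against 48.9% over all genes. Corrected for exonic length and GC content by local regression, the vestibular medians of HCs against ENSCs became -2.70 for collagens, -2.11 for laminins and -1.34 for integrins. Of the 4 higher and 31 lower calls, 3 and 29 were kept, and *Col18a1*, *Itga4* and *Itga9* lost theirs. *Col7a1* (log2 2.05) and *Itgb8* (-2.42) were past 3-fold only with the correction, which brought the totals to 4 and 30. Among collagens the vestibular log2 ratio went from -4.36 to -3.37 for *Col4a1*, from -4.64 to -3.39 for *Col4a2*, from -4.09 to -2.76 for *Col11a2*, from -3.13 to -2.12 for *Col5a1* and from -4.14 to -3.09 for *Col1a1*. Among laminins it went from -4.64 to -3.47 for *Lamb2* and from -4.18 to -3.06 for *Lama5*. Of the integrin rows, *Itga3* had -2.51 after correction, *Itga5* -2.13, *Itgb4* -2.57, *Itgb5* -1.66, *Itgav* -2.44 and *Itgbl1* -5.10.

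Between the ENSC libraries the correction changed more. The collagen median went from -0.57 to 0.15, the laminin median from -1.55 to -0.99 and the integrin median from -0.31 to -0.59. Of the 9 and 14 members called higher and lower, 8 and 8 kept the call, and *Col2a1*, *Col4a2*, *Itga3*, *Itgb3bp*, *Itgb4*, *Itgb5* and *Lama5* lost it. The calls of *Itga8* (log2 5.17 after correction), *Itgb6* (4.64), *Lamb1* (2.65), *Lamb2* (-2.45), *Col14a1* (-4.35), *Col1a1* (-2.27) and *Col3a1* (-3.79) held. For *Col6a3* the log2 ratio went from 2.79 to 3.38. The signs for *Col5a1*, *Col18a1* and *Col27a1* turned, with corrected log2 ratios of 0.33, 0.28 and 0.30. The shift of a chain ratio per kb between cochlear and vestibular ENSCs also moved for several pairs. On the log2 scale it went from 1.97 to 0.75 for *Col11a1* to *Col11a2*, from -2.94 to -1.74 for *Col2a1* to *Col11a1* and from 1.23 to 0.64 for *Col4a5* to *Col4a1*. For *Col1a2* to *Col1a1* it went from 5.0 to 3.96 and for *Lamb1* to *Lamb2* from 5.9 to 5.1. The cause of the trend was not tested.

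**Figure D5:**
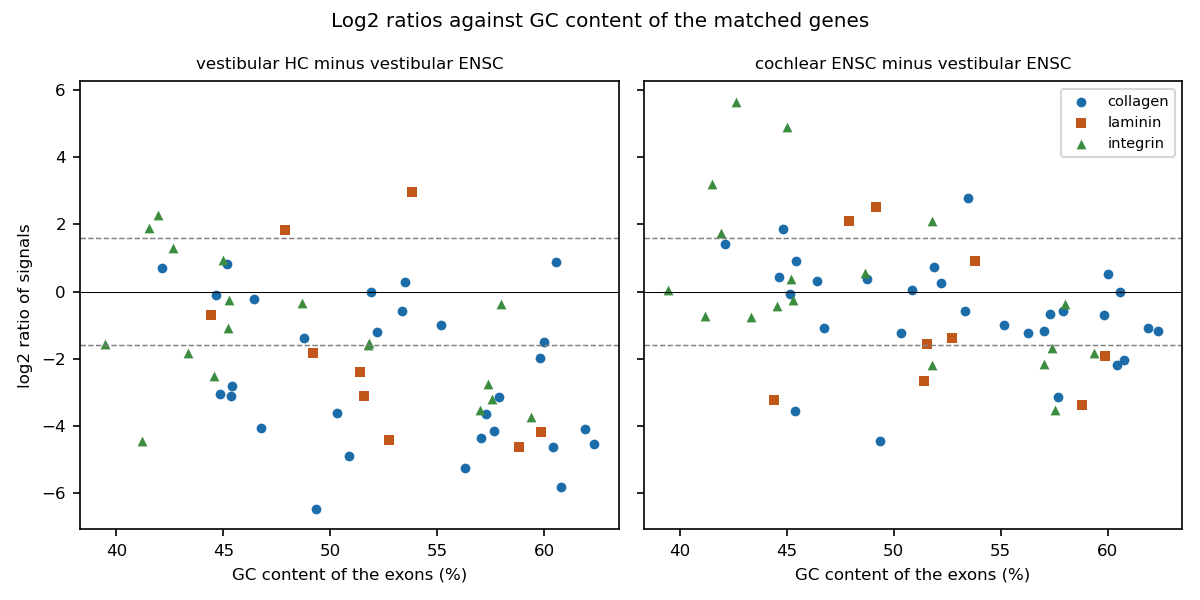
Log2 ratio (y axis) against GC content of the exons in % (x axis) for the matched genes, in vestibular HCs against ENSCs (left) and in cochlear against vestibular ENSCs (right), with dashed lines at 3-fold. The points fall from left to right in both panels, with Spearman's rho of -0.579 and -0.466 over the members above the floor.

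Other genes of the matrix and adhesion pathway followed the families in part. Of 23 genes for collagen processing 20 had a row. In cochlear HCs 7 of them were at least 3-fold lower and 1 higher, beside 9.20% and 8.39% of all genes. In vestibular HCs 9 were at least 3-fold lower and 1 higher, beside 14.3% and 13.8% of all genes. The same shares of all genes stand beside the counts of the lists that follow. The median log2 ratios for collagen processing were -1.40 and -1.16. *Serpinh1*, the collagen chaperone HSP47, had 127, 544, 89 and 2036. *P4hb*, a subunit of prolyl 4-hydroxylase, had 483, 921, 410.5 and 4108. The 3-fold higher ones were *Lox* and *Tll1*. *Lox*, which crosslinks collagen, had 3178 in cochlear HCs, 533 in cochlear ENSCs, 31.8 in vestibular HCs and 65.2 in vestibular ENSCs. *Tll1*, a procollagen proteinase, had 29.2 in cochlear HCs, 59.2 in cochlear ENSCs, 2787 in vestibular HCs and 222 in vestibular ENSCs. *Lox* was 5.97-fold higher in cochlear HCs than in cochlear ENSCs, and *Tll1* was 12.6-fold higher in vestibular HCs than in vestibular ENSCs.

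All 15 other basement membrane genes had a row, with 11 at least 3-fold lower in the HCs of the cochlea and 12 in those of the vestibular system. None was 3-fold higher, and the median log2 ratios were -2.07 and -3.77. *Sparc*, a collagen-binding glycoprotein, had 3326 in cochlear HCs, 16060.2 in cochlear ENSCs, 2649.8 in vestibular HCs and 62028 in vestibular ENSCs. *Hspg2*, the gene of perlecan, had 30, 237, 30.5 and 2951. Other receptors of laminin or collagen had 8 rows of 8, with 3 at least 3-fold lower in cochlear and 5 in vestibular HCs and none 3-fold higher. *Dag1*, the dystroglycan gene, had 1135, 1364, 1208 and 3501, and *Ddr1*, a collagen-binding receptor kinase, 506, 1575, 154 and 939.

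Other integrin ligands had 8 rows of 10. At least 3-fold lower were 3 in cochlear HCs and 5 in vestibular HCs, and 1 was at least 3-fold higher in each. The 3-fold higher one in both was *Tnc*, the gene of tenascin-C, a ligand of α8 and α9 integrins. It had 11148 in cochlear HCs, 661 in cochlear ENSCs, 10905 in vestibular HCs and 816 in vestibular ENSCs. *Fn1*, the fibronectin gene, went the other way, with 71, 1164, 37.8 and 2270.0. Of 19 genes of the integrin adhesion complex 16 had a row. In cochlear HCs 5 were at least 3-fold lower and 1 higher, beside 9.20% and 8.39% of all genes. In vestibular HCs 9 were at least 3-fold lower and 1 higher, beside 14.3% and 13.8% of all genes. The 3-fold higher one was *Dst*, a linker to the cytoskeleton, with 3079, 561, 3138 and 480.2. *Tln2*, a talin gene (talins activate integrins), had 109, 243, 283 and 3716, 13.1-fold lower in vestibular HCs than in vestibular ENSCs.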

How the data were processed

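Auditory and vestibular HCs and ENSCs were compared in 4 columns, 1 per population. The design text speaks of triplicates, so a column may be a single library, a pool or a mean. Columns were matched to samples by title, and those named for non-HCs were read as the ENSCs of that organ. Per the methods and the submitters' processing notes, the authors aligned the first 50 nt of reads from NuGEN Ovation amplified RNA to mm9 (TopHat), counted them per ENSEMBL gene (HTSeq), kept genes covered by at least 20 reads, quantile-normalized the columns and set a floor of 20. The deposited values are thus a signal and no longer counts, and a shift of the whole distribution between cell types is lost. Versions and strand setting are not given in the sources used here.

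Log2 ratios of the signals were computed with no pseudocount for 4 contrasts over all 12814 genes, and genes at least 3-fold apart in either direction were counted. The unranked low stretch of a library ends where the highest signal that genes reach in the other libraries, as a median, drops by a factor of 10. Exonic length, GC content and positions came from GENCODE M1 on NCBIM37, which is mm9, and 12799 genes matched it. The script was tested on simulated data. Python 3.11.15, pandas 2.3.3, SciPy 1.17.1 and statsmodels 0.14.6 were used. The alternatives were a pseudocount of 20, a floor of 100, thresholds of 2 and 5, values inside the low stretch raised to its top, centring on the median, local regression on length and GC content (fraction 0.3, 2 robust iterations), chains only, and rows of at least 100 in 1 library.

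Members and lists were chosen with earlier results of these data known. Values in each library were given for members with a signal of at least 200 in a library and a 3-fold ratio in a contrast, and for fixed sets of basement membrane, tectorial membrane, fibroblast and integrin chains. Other genes came from fixed pathway and marker lists. The values of 1 member are not reported here by name.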

Additional observations from a re-analysis of the deposited data

Results flagged for a closer look

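*Itga4* was the 1 member at least 3-fold apart between HCs and ENSCs in opposite directions in the 2 organs. Its HC to ENSC log2 ratio was -5.22 in the cochlea, where the signal of 24.2 in HCs lay inside the unranked low stretch, and 1.89 in the vestibular system. The vestibular minus cochlear difference was 7.11 on the log2 scale. With 1 column per population the difference was not tested. Corrected for exonic length and GC content, the vestibular ratio was 1.18 and no longer past 3-fold. Of all genes, 52 were 3-fold apart in opposite directions.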

How the results depend on the processing

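No paired analysis was possible because each population had 1 column, whose replicate number is only a name. The collagen median between the ENSC libraries changed sign with the correction for length and GC content. Under centring and under raising the low stretch to its top every family median and member count stayed within a factor of 1.5, as did the medians with chains only, where members were not counted. A pseudocount of 20 moved the collagen median in the cochlea from -2.17 to -1.57 and the laminin median in the vestibular system from -2.38 to -1.75. A floor of 100 gave cochlear medians of -0.94 for collagens, 0.000 for laminins and -0.47 for integrins, and vestibular medians of -2.15 for collagens and -1.40 for laminins. It left 2 of the 5 members past 3-fold between the HC libraries and 15 of the 23 between the ENSC libraries. With rows of at least 100 in 1 library the vestibular collagen median was -3.63. Between the HC libraries a threshold of 2 gave 10 members and a threshold of 5 gave 3. Between the ENSC libraries a threshold of 5 gave 12 members. No share over all genes is given at the thresholds of 2 and 5, so these counts have no background beside them. Between the ENSC libraries the correction for length and GC content moved the collagen median from -0.57 to 0.15. Raising the floor or adding a pseudocount shrinks ratios of low signals by construction. The cause of the other shifts was not tested. Of the 27 members 3-fold lower in cochlear HCs, 23 kept the call with the pseudocount and 19 with the floor of 100. The depth is unknown, there are no replicates, and ratios against signals in the low stretch are bounds only.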
